A study of Homo sapiens with 8 samples.

Results

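Zinc finger genes named ZNF followed by a number form dense clusters on human chromosome 19, and their transcripts were followed here in a pair of acute myeloid leukemia cell lines with and without an inhibitor of the histone demethylase LSD1. Members were chosen by name, position and total count only: every row of the deposited gene table named ZNF plus digits and at most 1 closing letter, with all its exons on chromosome 19 and at least 100 reads summed over the 8 libraries. Of 238 such names, 219 reached the count threshold, out of 33045 rows in the table. The members just inside the threshold were ZNF702P with 115 reads, ZNF829 with 125 and ZNF404 with 128, and the names just outside were ZNF418 with 93, ZNF826 with 76 and ZNF208 with 66. All 219 members also passed the low-count filter of each test, and 211 carried a name that RefSeq lists as protein coding.

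KASUMI-1, a line with the RUNX1::RUNX1T1 fusion that the labels call sensitive to LSD1 inhibition, was sampled after 6 and 72 h of vehicle or of 0.5 µM DDP38003 (LSD1i). The resistant line by the labels, THP-1, is monocytic and carries a KMT2A fusion. It was sampled after 24 and 72 h of vehicle or of the same dose. Each of the 8 combinations was 1 library, so each line had 2 pairs of an LSD1i and a vehicle library, and each kind of leukemia is represented by 1 cell line. The labels do not name separate cultures, and the spread behind each p-value is that among these libraries, which may be technical. Counted reads per library ran from 23722972 (KASUMI-1 vehicle at 72 h, the shallowest) to 45970766, and the members took 0.226 to 0.314% of them. Of the markers listed for the lines, RUNX1T1, the fusion partner gene, was at 76.2 to 106 CPM (reads scaled to library size) in KASUMI-1 and at 0.119 to 0.201 in THP-1, while HOXA9, which is high in KMT2A-rearranged leukemia, was at 0.919 to 1.51 CPM in KASUMI-1 and at 53.2 to 56.3 in THP-1. HOXA10 differed less, at 26.9 to 33 CPM in KASUMI-1 and 41.6 to 48.1 in THP-1, and MEIS1, the usual partner of HOXA9, was near 0 in both lines (at most 0.089 and 0.112 CPM) and marked neither. HBG1, a marker of erythroid cells, had 0 reads in every library, the T cell marker CD3E was at most at 0.401 CPM and COL1A1 of fibroblasts at 0.224.

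Most proteins of this family carry a row of C2H2 zinc fingers that read DNA and a KRAB domain that binds TRIM28, a scaffold for SETDB1, HP1 proteins and DNA methyltransferases. They are known mainly as repressors of transposable elements. The genes arose by tandem duplication, so neighbours are close paralogs, and ZNF274 itself is known to bring SETDB1 to the 3′ ends of zinc finger genes. LSD1 removes methyl groups from histone H3 lysine 4 as part of corepressor complexes with RCOR1.

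Positions are those of the deposited table, on NCBI build 36 (hg18). All 238 names were used to form clusters, whatever their reads, and neighbours no more than 1 Mb apart were joined. This gave 9 clusters with at least 5 members, named C1 to C9 here in order along the chromosome. They hold 209 of the members, and the other 10 are scattered genes. The clusters that carry most of what follows are C4 (26 members from ZNF101 to ZNF254, chr19:19640605-24104483, on the short arm next to the centromere), C5 (5 members, ZNF302 to ZNF792, chr19:39865513-40146793), C6 (23 members, ZNF565 to ZNF573, chr19:41365028-42999780), C8 (37 members, ZNF175 to ZNF331, chr19:56766343-58775335) and C9 (52 members, ZNF628 to ZNF446, chr19:60679511-63684403).

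The sequence just before the transcription start shows how closely related neighbours are. RefSeq windows before the start (GRCh38.p14) were used for 185 members matched by name. The other 34 are 33 with no entry in the table and ZNF492. The ZNF492 row lies on the minus strand of the deposited table, while the RefSeq gene of that name is on the plus strand. For 159 of the 185 windows, bases just after the start were found in a GENCODE transcript of the same gene. For the rest they were not, and distances below take the RefSeq start as given. The 250 bases before the start of 5 members of C4 are printed here because they share a block that recurs through the cluster, and the capitals mark the 9-base string TCCAATCAG, which contains CCAAT, the core of the site of the factor NF-Y. ZNF93 holds the string at 2 places. ZNF730, ZNF257 and ZNF93 were far lower in KASUMI-1 than in THP-1, ZNF91 was moderately lower, and ZNF254 was higher in KASUMI-1. Their windows lie at chr19:23116775-23117024 (plus strand), chr19:22052234-22052483 (plus strand), chr19:19900696-19900945 (plus strand), chr19:23395472-23395721 (minus strand) and chr19:24086937-24087186 (plus strand), each written 5′ to 3′ on its own strand.
ZNF730: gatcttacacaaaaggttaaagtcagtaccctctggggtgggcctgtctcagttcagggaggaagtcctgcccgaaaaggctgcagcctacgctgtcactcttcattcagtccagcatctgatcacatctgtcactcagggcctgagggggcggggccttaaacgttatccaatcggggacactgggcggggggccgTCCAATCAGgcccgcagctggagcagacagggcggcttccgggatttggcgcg
ZNF257: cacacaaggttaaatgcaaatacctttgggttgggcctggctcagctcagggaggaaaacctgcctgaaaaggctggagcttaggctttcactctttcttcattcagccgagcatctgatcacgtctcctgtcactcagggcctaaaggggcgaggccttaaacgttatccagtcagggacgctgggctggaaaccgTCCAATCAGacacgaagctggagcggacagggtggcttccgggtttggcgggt
ZNF93: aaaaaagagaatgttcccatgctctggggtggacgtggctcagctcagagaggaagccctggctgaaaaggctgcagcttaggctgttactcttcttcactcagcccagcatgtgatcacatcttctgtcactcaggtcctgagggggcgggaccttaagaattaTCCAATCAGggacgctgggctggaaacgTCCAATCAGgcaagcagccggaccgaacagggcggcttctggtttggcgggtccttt
ZNF91: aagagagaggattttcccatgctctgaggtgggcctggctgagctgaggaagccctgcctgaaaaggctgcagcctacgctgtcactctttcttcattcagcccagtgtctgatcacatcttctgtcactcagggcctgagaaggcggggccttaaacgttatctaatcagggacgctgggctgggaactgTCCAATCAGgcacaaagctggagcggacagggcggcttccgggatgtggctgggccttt
ZNF254: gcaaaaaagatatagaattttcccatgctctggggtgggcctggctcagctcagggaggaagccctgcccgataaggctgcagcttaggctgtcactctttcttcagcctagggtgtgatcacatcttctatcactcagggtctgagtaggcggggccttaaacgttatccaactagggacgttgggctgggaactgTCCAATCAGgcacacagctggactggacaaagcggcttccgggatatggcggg

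TCCAATCAG was the commonest 9-base string in the promoters of C4 and was chosen for that reason. It stood in 21 of 21 matched promoters of C4, always in this orientation, between 24 and 88 bases before the start (median 58). It was also the commonest string of C3, in 18 of 22 promoters. Among all 27305 promoters of the same length, 0.857% held it or its reverse complement. Since all matched promoters of C4 held it, the string could not set genes apart by the line difference. It stood in 11 of 11 matched genes called higher in THP-1, in 2 of 2 called lower and in 8 of 8 with no call. ZNF91 and ZNF254 shared an unbroken run of 28 bases around it, and ZNF730 and ZNF254 a run of 24 bases upstream of it, although these genes differed between the lines in opposite directions.

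The strings of other clusters were less general. In C8 the commonest was GCCCCGCCC, a GC box with its flanks, in 17 of 27 matched promoters against 13.6% of all promoters. In C6 it was CCTCTGGGA, in 9 of 22 against 0.945%, and in C9 it was AACTACATT, in 14 of 47 against 0.41%. CG dinucleotides in the 250 bases numbered 16 in the median member (range 1 to 30) and 11 in the median promoter of all genes. The median was 15.5 in 26 matched members at least 4-fold higher in THP-1, 20 in 9 matched members at least 4-fold lower and 16 in 88 members with no call. Each search covered both strands and a match describes letters only.

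A further 5 windows are printed for neighbours in C8 and C6 whose values follow. ZNF350 (chr19:51986841-51987090 (minus strand)) and ZNF615 (chr19:52008212-52008461 (minus strand)) are adjacent and both near 0 in KASUMI-1. ZNF841 (chr19:52095766-52096015 (minus strand)) lies in the same run of genes, and its 2 copies of GCCCCGCCC are in capitals. ZNF585A (chr19:37172696-37172945 (minus strand)) and ZNF585B (chr19:37210537-37210786 (minus strand)) are adjacent paralogs whose windows share an unbroken run of 22 bases, and they went apart between the lines.
ZNF350: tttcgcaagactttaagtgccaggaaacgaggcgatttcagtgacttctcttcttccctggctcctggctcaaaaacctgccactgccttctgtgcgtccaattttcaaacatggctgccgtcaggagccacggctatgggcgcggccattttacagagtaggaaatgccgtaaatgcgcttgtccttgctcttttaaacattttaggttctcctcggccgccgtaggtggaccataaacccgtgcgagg
ZNF615: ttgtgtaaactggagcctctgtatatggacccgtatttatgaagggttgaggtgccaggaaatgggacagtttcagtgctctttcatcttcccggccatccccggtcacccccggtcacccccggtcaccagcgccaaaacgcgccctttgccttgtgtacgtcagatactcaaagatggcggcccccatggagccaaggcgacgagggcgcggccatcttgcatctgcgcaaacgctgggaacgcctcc
ZNF841: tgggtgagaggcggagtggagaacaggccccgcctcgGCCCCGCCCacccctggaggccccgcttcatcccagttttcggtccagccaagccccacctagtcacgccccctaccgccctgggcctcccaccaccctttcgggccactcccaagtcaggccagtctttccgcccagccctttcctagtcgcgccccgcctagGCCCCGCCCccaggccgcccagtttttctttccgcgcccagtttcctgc
ZNF585A: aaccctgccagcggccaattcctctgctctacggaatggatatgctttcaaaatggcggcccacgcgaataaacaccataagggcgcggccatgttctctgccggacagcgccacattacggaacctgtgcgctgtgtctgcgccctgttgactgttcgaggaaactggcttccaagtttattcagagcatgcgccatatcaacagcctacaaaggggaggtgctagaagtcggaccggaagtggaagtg
ZNF585B: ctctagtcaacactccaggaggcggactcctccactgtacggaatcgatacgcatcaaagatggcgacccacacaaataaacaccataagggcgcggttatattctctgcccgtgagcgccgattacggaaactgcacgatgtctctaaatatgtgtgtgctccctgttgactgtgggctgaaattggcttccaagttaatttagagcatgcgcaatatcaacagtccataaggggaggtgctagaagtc

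The first comparison asked how the lines differ without the inhibitor, over the 2 vehicle libraries of each. By edgeR's quasi-likelihood test with Benjamini-Hochberg adjustment over 15456 genes at 0.05, 71 members (32.4%) were higher in THP-1 and 45 (20.5%) lower. Over all genes tested, 30.1% were higher and 26.4% lower, so the members as a whole stood near the background. At least 4-fold differences were called for 33 members (15.1%) upward and 10 (4.57%) downward, against 12.7% and 7.19% of all genes. Without the THP-1 vehicle library of 72 h, 63 members were higher and 29 lower. One vehicle library of each line was taken at 72 h, and the other at 6 h in KASUMI-1 and at 24 h in THP-1.

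Position divided the members. In C8, 26 of 37 were higher in THP-1 and 1 was lower, with a median log2 difference of 1.49. In C4, 16 of 26 were higher and 2 lower, with a median of 1.47. Between the LSD1i libraries, C8 had 20 higher and a median of 1.03, and C4 had 14 higher and a median of 0.95. The direction was the other way in C1, C5 and C6, with 3 of 5, 3 of 5 and 12 of 23 lower and 1, 0 and 3 higher. Their medians were -0.66, -1.44 and -0.61. With 1 vehicle library left out at a time, the median ran from -0.72 to -0.49 in C1 and from -0.76 to -0.38 in C6. C9, the largest cluster, had 6 higher (11.5%) and 12 lower (23.1%) of 52 and a median of -0.14. Both shares were below those of all genes (30.1% and 26.4%). Its lower calls numbered 7 without the THP-1 vehicle library of 72 h, 18 between the LSD1i libraries and 20 over all 8 libraries. Outside C4 and C8 the 156 remaining members had 29 higher, 42 lower and a median of -0.10. Medians over members are descriptions with no test between clusters.

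**Figure D1:**
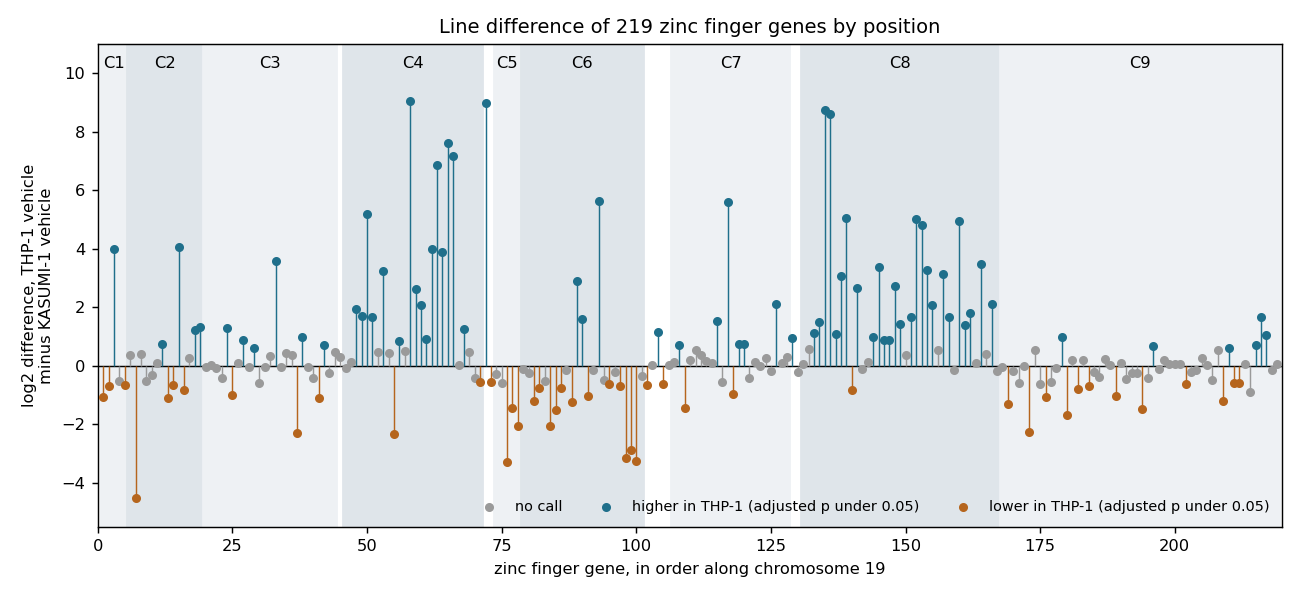
Each point is 1 of 219 zinc finger genes in its order along chromosome 19, with the log2 difference of the THP-1 and KASUMI-1 vehicle libraries (2 against 2) on the vertical axis, colored by the call of edgeR's test and shaded by cluster. Tall positive values stand in C4 and C8, and C1, C5 and C6 lie mostly below 0.

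In C4 and C8 the genes that are not zinc finger genes did not show the balance of the members. In C4, 5 other genes were tested, of which 1 was higher in THP-1 and 3 lower, with a median log2 difference of -0.61. In C8, 16 others were tested, 6 higher and 3 lower, with a median of 0.05. In C6 the 5 others had 1 called, higher in THP-1, and a median below 0 like that of the members (-0.30). In C9 the 20 others had 1 higher and 4 lower (median -0.11), leaning the same way as the members. C1 and C5 had 0 other genes to test. The 248 ZNF genes tested on other chromosomes had 70 higher, 67 lower and a median of -0.04.

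**Figure D2:**
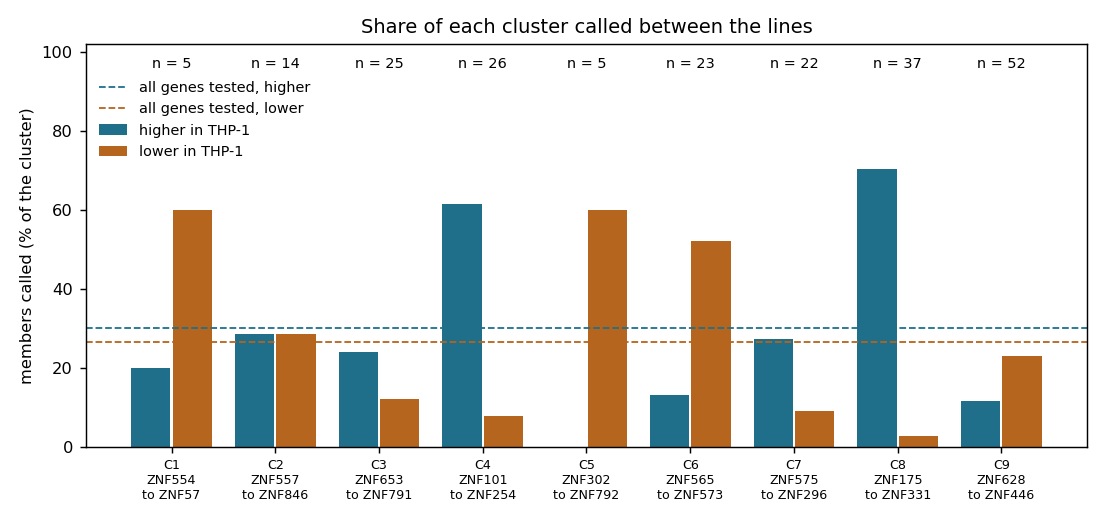
Bars give the percentage of each cluster's members called higher or lower in THP-1 than in KASUMI-1 vehicle libraries, with the number of members above and the share over all 15456 genes as dashed lines (30.1% higher, 26.4% lower). C8 reaches 70.3% and C4 61.5% higher, and C1 and C5 reach 60% and C6 52.2% lower.

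Within C8 the THP-1-high genes came in uninterrupted runs of neighbours. The longest held 7 genes over chr19:57084301-57290830, in order ZNF649, ZNF613, ZNF350, ZNF615, ZNF614, ZNF432 and ZNF841, with log2 differences from 1.08 to 8.75. ZNF350, known as ZBRK1, a KRAB repressor that binds BRCA1, had CPM of 0.0262, 0.0509, 0.0445 and 0.0731 in the KASUMI-1 libraries (vehicle and LSD1i at 6 h, then vehicle and LSD1i at 72 h) and of 16.6, 14.4, 14.7 and 14.4 in the THP-1 libraries (the same order at 24 and 72 h). In vehicle libraries it had 2 reads in KASUMI-1 and 1409 in THP-1, which is 476 times as much after correction for depth (95% counting interval 131 to 3933). Its neighbour ZNF615 was at 0.0262, 0.0763, 0 and 0 CPM in KASUMI-1 and at 7.55, 5.48, 7.67 and 7.54 in THP-1, with 1 and 682 vehicle reads (ratio 461, interval 82.4 to 18222). Neither gene overlapped between the lines in any library, and both adjusted p-values were small (6.7e-08 and 3.18e-07).

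The next gene, ZNF614, was well expressed in both lines. It was at 12.7, 11.8, 10.9 and 12.7 CPM in KASUMI-1 and at 26.8, 21.1, 22.8 and 21.7 in THP-1, a log2 difference of 1.08 (SE 0.20, adjusted p = 0.000993). ZNF841 was at 0.604, 0.84, 0.579 and 0.706 CPM in KASUMI-1 and at 17.3, 13.2, 22.3 and 16.1 in THP-1, a difference of 5.06 (SE 0.29, adjusted p = 2.09e-07). The run ended at ZNF616, the one C8 member called lower in THP-1, which was at 21, 16.8, 17.1 and 18.4 CPM in KASUMI-1 and at 10.6, 8.7, 10.7 and 9.77 in THP-1 (log2 difference -0.84, SE 0.20, adjusted p = 0.00492). Genes near 0 in KASUMI-1 stood directly beside genes with over 10 CPM in the same libraries.

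Further along C8 a run of 6 (ZNF610, ZNF534, ZNF578, ZNF808, ZNF701 and ZNF137, log2 differences 0.88 to 3.37), a run of 5 (ZNF611, ZNF600, ZNF28, ZNF468 and ZNF320, 1.66 to 5.02) and a run of 3 (ZNF347, ZNF665 and ZNF818P, 1.40 to 4.94) were also higher in THP-1. ZNF600 was at 0.367, 0.229, 0.312 and 0.365 CPM in KASUMI-1 and at 11.4, 10.1, 11.1 and 10.2 in THP-1, a log2 difference of 5.02 (SE 0.30, adjusted p = 3.29e-07). ZNF28 differed by 4.83 (SE 0.31) and ZNF347 by 4.94 (SE 0.40), and the exons of ZNF28 overlap another row, so its reads there are uncertain. ZNF331, an imprinted gene at the far end of the cluster, was at 6.45 to 8.84 CPM in KASUMI-1 and 6.1 to 7.08 in THP-1, and its difference of -0.16 did not pass (adjusted p = 0.583). ZNF480 was at 49.2 to 74 CPM in KASUMI-1 and 60 to 74.4 in THP-1 (difference 0.13, adjusted p = 0.638). The calls of ZNF610 and ZNF578 were lost without the THP-1 vehicle library of 72 h (adjusted p = 0.235 and 0.129), that of ZNF578 also without the THP-1 vehicle library of 24 h (0.0746) or the KASUMI-1 vehicle library of 6 h (0.0816). With the LSD1i libraries in place of vehicle, ZNF610 was at -0.27 (adjusted p = 0.442), and the calls of ZNF578, ZNF137, ZNF611 and ZNF665 were lost (adjusted p = 0.186, 0.145, 0.111 and 0.461).

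C4, the centromere-proximal cluster of the short arm, held the longest run of all, 9 neighbours among the genes that reached 100 reads (7 of the 33 names in C4 did not), over chr19:21333572-23124603: ZNF738, ZNF493, ZNF429, ZNF100, ZNF43, ZNF257, ZNF729, ZNF492 and ZNF730. ZNF738 was at 0.0262, 0.153, 0 and 0.0244 CPM in KASUMI-1 and at 10.9, 8.49, 10 and 9.07 in THP-1. It had 1 vehicle read in KASUMI-1 and 942 in THP-1 (ratio 636, interval 114 to 25158). ZNF730 had 2 and 468 vehicle reads (ratio 158, interval 43.5 to 1309), ZNF257 had 3 and 555 (ratio 125, interval 42.5 to 608), and the row named ZNF492 had 3 and 941 (ratio 212, interval 72.3 to 1029). Members of the same run with more reads differed less: ZNF43 by 3.98 (SE 0.24), ZNF493 by 2.63 (SE 0.34), ZNF429 by 2.07 (SE 0.22) and ZNF100 by 0.92 (SE 0.20), a call lost between the LSD1i libraries (0.24, adjusted p = 0.299).

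ZNF93 and ZNF91, which were listed whatever their values, are known as repressors of retrotransposons. Both were among the 16 of 26 members of C4 called higher in THP-1. ZNF93, which represses LINE-1 elements, was at 1.78, 2.85, 1.34 and 2.26 CPM in KASUMI-1 and at 60.6, 40.9, 54.9 and 33.7 in THP-1, a log2 difference of 5.19 (SE 0.23, adjusted p = 4.38e-08). It belonged to a run of 4 with ZNF506, ZNF253 and ZNF682, whose differences were 1.95, 1.72 and 1.69. ZNF91, which represses SVA elements, was at 14.6, 18, 10.5 and 17.6 CPM in KASUMI-1 and at 30.8, 28.5, 29.3 and 33.4 in THP-1, a difference of 1.26 (SE 0.21, adjusted p = 0.000477). The members of C4 lower in THP-1 were ZNF714 (-2.32, SE 0.21), at 26.9 to 45.2 CPM in KASUMI-1 and 3.96 to 6.56 in THP-1, and ZNF254 (-0.54, SE 0.20, adjusted p = 0.0404). The call of ZNF254 was lost without the KASUMI-1 vehicle library of 6 h (adjusted p = 0.186), the THP-1 library of 24 h (0.116) or the THP-1 library of 72 h (0.253).

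**Figure D3:**
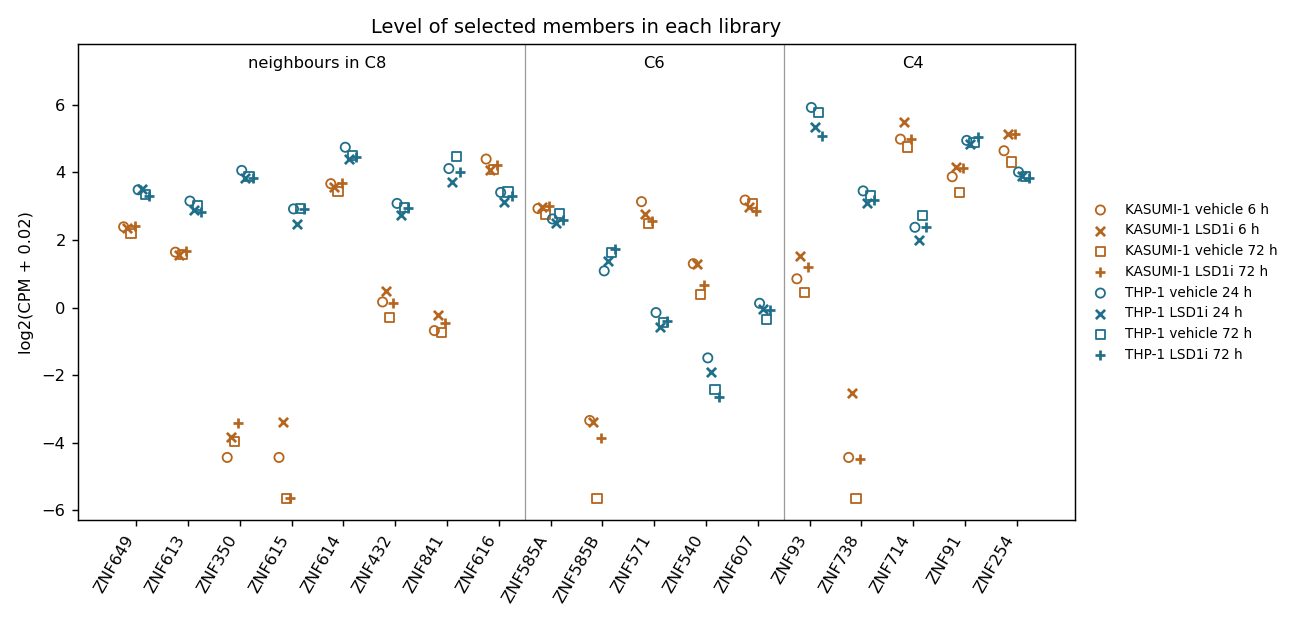
Each marker is the level of 1 member in 1 library as log2(CPM + 0.02), brown for KASUMI-1 and blue for THP-1, open for vehicle and crosses for LSD1i. Neighbours of C8 come first, then selected members of C6, then of C4. Within each cluster they follow chromosomal order, except that ZNF738 is drawn before ZNF714. ZNF350, ZNF615, ZNF585B and ZNF738 fall to or near the floor in KASUMI-1. ZNF585A, beside ZNF585B, has a similar level in both lines. ZNF614, beside ZNF615, is expressed in both lines but called higher in THP-1 (log2 difference 1.08). LSD1i libraries sit close to their vehicle libraries.

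Of the 45 members called higher in KASUMI-1, C6 and C9 held 12 each. These were 52.2% of the members of C6 but 23.1% of those of C9, beside 26.4% of all genes. Runs of neighbours in this direction stood in C5 and C6. In C5 the neighbours ZNF599, ZNF30 and ZNF792 differed by -3.27 (SE 0.37), -1.44 (SE 0.31) and -2.07 (SE 0.24). In C6 a run of 4 over chr19:42651822-42902531 held ZNF570, ZNF571, ZNF540 and ZNF607. ZNF607 was at 9.05, 7.89, 8.41 and 7.23 CPM in KASUMI-1 and at 1.07, 0.961, 0.76 and 0.932 in THP-1, a log2 difference of -3.24 (SE 0.28, adjusted p = 4.8e-06). ZNF571 was at 8.77, 6.82, 5.56 and 5.89 CPM in KASUMI-1 and at 0.648 to 0.883 in THP-1 (-3.16, SE 0.32, adjusted p = 1.5e-05), and ZNF540 differed by -2.88 (SE 0.47). The call of ZNF570 (-0.71) was lost without the KASUMI-1 vehicle library of 6 h (adjusted p = 0.0646), the THP-1 library of 24 h (0.108) or the THP-1 library of 72 h (0.271).

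A second run in C6 held ZNF382, ZNF461 and ZNF567. ZNF382, a KRAB repressor reported to be silenced in several tumors, was at 6.82, 8.78, 6.1 and 7.53 CPM in KASUMI-1 and at 1.32, 1.21, 1.78 and 1.58 in THP-1, a difference of -2.06 (SE 0.27, adjusted p = 9.13e-05). The starts of ZNF461 and ZNF567 lie 97 bases apart, head to head, in RefSeq, and they differed by -1.5 and -0.76. The latter call was lost without the THP-1 vehicle library of 72 h (adjusted p = 0.119). Of 7 head-to-head pairs of members with starts under 1000 bases apart, 2 had both genes called in the same direction, this pair and ZNF829 with ZNF568 (2.90 and 1.61, both higher in THP-1), and 3 had the call on the plus-strand gene alone.

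ZNF585A and ZNF585B are a contrast between neighbours in C6. ZNF585A was at 7.61, 7.84, 6.72 and 8.09 CPM in KASUMI-1 and at 6.14, 5.61, 6.86 and 5.96 in THP-1, a log2 difference of -0.14 that did not pass (SE 0.22, adjusted p = 0.62). ZNF585B was at 0.0787, 0.0763, 0 and 0.0487 CPM in KASUMI-1 and at 2.1, 2.57, 3.06 and 3.33 in THP-1, with 3 and 229 vehicle reads (ratio 51.6, interval 17.4 to 252). As close copies these genes may share reads, which the recorded counting would leave out of both, so their levels are uncertain.

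Some of the widest differences lay outside these clusters. ZNF536, a scattered gene known from the developing brain, had 0 reads in all 4 KASUMI-1 libraries and 1.13 to 1.71 CPM in THP-1, and its vehicle level was at least 33.8-fold higher in THP-1, taking 3 reads over both KASUMI-1 vehicle libraries as the floor. ZNF223 in C7 was at 0.0763 to 0.131 CPM in KASUMI-1 and 4.72 to 5.89 in THP-1 (5.61, SE 0.39). ZNF358 in C2 had the lowest line difference of all members, at 7.98, 6.13, 13.8 and 13.2 CPM in KASUMI-1 and at 0.504, 0.469, 0.428 and 0.537 in THP-1 (-4.52, SE 0.36, adjusted p = 2.4e-06). Outside C4, C5 and C6 the next were ZNF563 in C3 and ZNF581 in C9 with -2.30 (SE 0.33) and -2.27 (SE 0.27). ZNF274, the reader of zinc finger genes named above, was modestly higher in THP-1 (29.7 to 29.9 CPM against 42.6 to 48.5 in vehicle libraries, 0.61, SE 0.17, adjusted p = 0.0101), a call lost without the THP-1 vehicle library of 72 h (adjusted p = 0.095). In C9 the run of 3 called higher was ZNF584, ZNF132 and ZNF324B, by 0.70 to 1.68, and ZNF584 lost its call without the THP-1 vehicle library of 24 h (adjusted p = 0.0892).

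Across the 200 neighbouring pairs of members within clusters, 121 had line differences of the same sign. Both genes were called in 63 pairs, of which 45 were called in the same direction. No such share was computed for neighbours among all genes. Neither count was tested against what the members' own split of directions would give. Members that share no exon base with another row, 197 of 219, had 64 higher and 45 lower, so every member called lower was among them.

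Levels compared per length (RPKM, reads scaled by library size and exon length) were low for most members, with ZNF146 highest at a median of 63 RPKM over the 8 libraries. ZNF146, known as OZF, is made of zinc fingers alone without a KRAB domain. It was followed by ZNF428 (19 RPKM), ZNF581 (18.8), ZNF700 (14.7) and ZNF480 (14.7). ZNF146 was at 261, 245, 205 and 253 CPM in KASUMI-1 and at 213, 194, 176 and 173 in THP-1, and its line difference of -0.26 did not pass (adjusted p = 0.253), nor did its LSD1i responses. The start of ZNF565, 22 bases away on the other strand in RefSeq, belongs to a gene at 2.8 to 4.09 CPM in all libraries.

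Among the members alone, a search by Pearson correlation over the 8 libraries gave those whose levels followed the most extreme members most closely. For ZNF738 they were ZNF20, ZNF432 and ZNF730 (r from 0.993 to 0.996). For ZNF358 they were ZNF554, ZNF607 and ZNF792 (0.981 to 0.986), and for ZNF599 they were ZNF382, ZNF507 and ZNF714 (0.993 to 0.994). With 4 libraries from each line, such values restate the line difference and carry no test.

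The second comparison asked how the members respond to LSD1i within each line, over its 2 pairs. Changes were small beside the line differences. No member was called at 4-fold or more in either line, where 0.542% of all genes in KASUMI-1 and 1.25% in THP-1 were, so few were to be seen. In KASUMI-1, 10 members (4.57%) rose and 1 (0.457%) fell by edgeR's test over 16060 genes, while 7.02% of all genes rose and 5.09% fell. In THP-1, 1 member (0.457%) rose and 2 (0.913%) fell, against 6.51% and 2.85% of all genes. Each share was below that of all genes, and the difference in shares was not tested. Every one of these calls rests on the pairing of libraries: without the pair terms edgeR called 0 members in either line, with 15 rising and 6 falling in KASUMI-1 and 1 rising and 7 falling in THP-1 at an unadjusted p under 0.05. At that unadjusted level the paired fit had 31 rising and 7 falling in KASUMI-1 and 3 rising and 22 falling in THP-1, and paired DESeq2 called 4 rising and 1 falling, then 0 and 2.

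Of the 10 members that rose in KASUMI-1, 5 lie in C4: ZNF93, ZNF254, ZNF708, ZNF91 and ZNF100. ZNF254 was at 24.9 CPM with vehicle and 35 with LSD1i at 6 h, and at 19.8 and 34.9 at 72 h, a log2 response of 0.65 (SE 0.14, adjusted p = 0.00794). ZNF708 went from 15.6 to 20.7 CPM and from 11.1 to 19.8 (0.61, SE 0.16, adjusted p = 0.0228). ZNF100 went from 27.3 to 37.4 CPM and from 19.5 to 28.2 (0.49, SE 0.13, adjusted p = 0.0235), and ZNF91 from 14.6 to 18 and from 10.5 to 17.6 (0.51, SE 0.16, adjusted p = 0.0416). In each of these genes both LSD1i libraries were above both vehicle libraries of KASUMI-1. The vehicle library of 72 h is also the shallowest, at 23722972 reads against 39385565 to 45970766 in the other KASUMI-1 libraries, and its part in the result was not tested.

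The other members that rose in KASUMI-1 were ZNF471 (0.86, SE 0.25), ZNF534 (0.85, SE 0.27), ZNF580 (0.69, SE 0.20), ZNF345 (0.68, SE 0.21) and ZNF548 (0.48, SE 0.15). ZNF428 fell by 0.46 on the log2 scale (SE 0.14, adjusted p = 0.0419), from 41.4 to 34.8 CPM at 6 h and from 54.9 to 34.7 at 72 h. These 11 calls depended on the 72 h pair: without it, on the 6 h pair of KASUMI-1 alone beside both THP-1 pairs, edgeR called 0 members in either direction (12 rising and 5 falling at an unadjusted p under 0.05). Without the 6 h pair 24 rose, 7 of them among the 10, and 4 fell, and without the 24 h or the 72 h pair of THP-1 3 rose and 0 fell. The calls of ZNF534, ZNF548 and ZNF91 were also lost with DESeq2's size factors in edgeR (adjusted p = 0.0548, 0.0524 and 0.0506).

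In THP-1 the called falls were ZNF93 and ZNF439 and the called rise was ZNF30. ZNF93 went from 60.6 CPM with vehicle to 40.9 with LSD1i at 24 h and from 54.9 to 33.7 at 72 h, a log2 response of -0.63 (SE 0.13, adjusted p = 0.00371). ZNF439 went from 24.8 to 16.3 CPM and from 32.4 to 22.4 (-0.57, SE 0.14, adjusted p = 0.0148). ZNF30 went from 2.35 to 4.22 CPM and from 1.62 to 2.51 (0.75, SE 0.23, adjusted p = 0.0489). In KASUMI-1 ZNF30 was at 6.54 and 8.24 CPM at 6 h and at 4.23 and 8.5 at 72 h (0.65, adjusted p = 0.0523). Without the 24 h or the 72 h pair of THP-1, all 3 calls were lost (ZNF93 at adjusted p = 0.0717 and 0.216, ZNF439 at 0.211 and 0.208, ZNF30 at 0.491 and 0.311). Without either KASUMI-1 pair in turn, 6 members fell and 2 rose in THP-1.

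The third comparison took the difference between the responses of the lines. By edgeR, 7 members (3.2%) had a lower response in THP-1 than in KASUMI-1 and 0 a higher one, against 2.62% and 3.07% of all genes, and 2 members were higher at an unadjusted p under 0.05 (0 called and 0 unadjusted with DESeq2). ZNF93 differed most, with a log2 response of 0.71 (SE 0.20, adjusted p = 0.0304) in KASUMI-1 and -0.63 in THP-1, a difference of -1.34 (SE 0.24, adjusted p = 0.00364). The difference was -1.23 for ZNF534, -0.84 for ZNF439, -0.84 for ZNF548, -0.73 for ZNF254 and -0.69 for ZNF100. ZNF224, a KRAB repressor that works with the tumor suppressor WT1, was outside the rule for named genes and is named after its values were seen: its difference was -0.70 (adjusted p = 0.0489). Without the THP-1 pair of 72 h edgeR called 0 of these differences (30 lower at an unadjusted p under 0.05, ZNF93 at adjusted p = 0.0524). Without the THP-1 pair of 24 h 1 was called, without the KASUMI-1 pair of 72 h 3, and without the KASUMI-1 pair of 6 h 20.

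**Figure D4:**
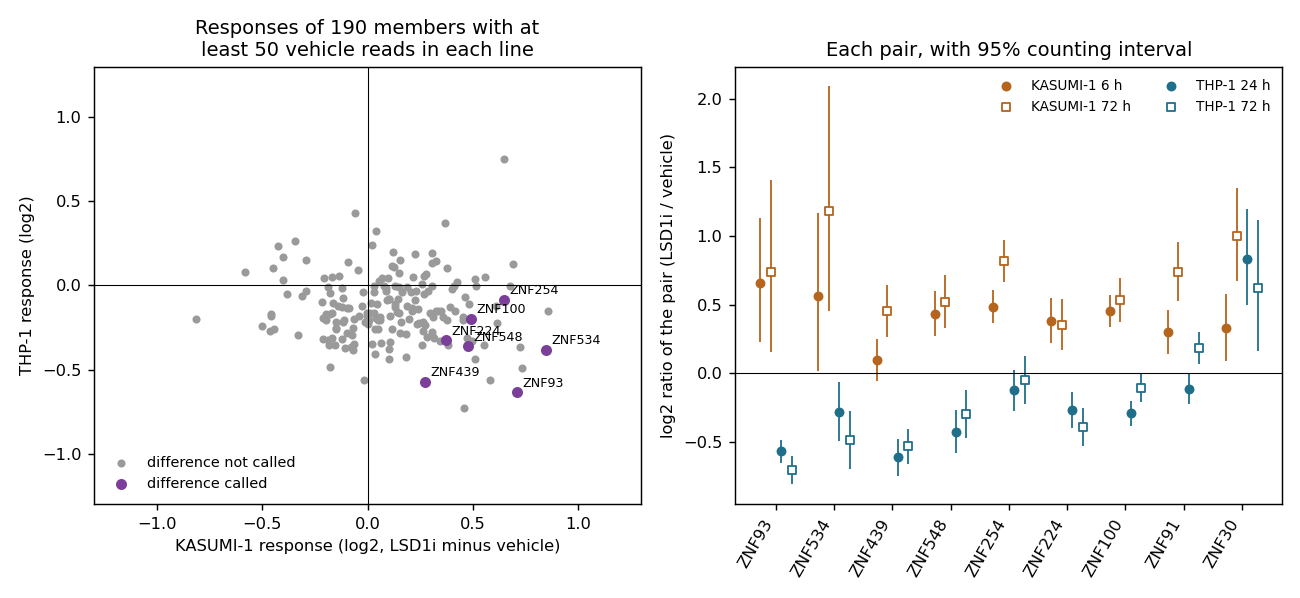
The left plot sets the THP-1 response against the KASUMI-1 response (log2, LSD1i minus vehicle) for 190 members with at least 50 vehicle reads in each line, with members whose difference was called in purple. The right plot gives the log2 ratio of each pair with its 95% counting interval for the 7 members of called difference, ZNF91 and ZNF30. ZNF93 is above 0 in both KASUMI-1 pairs and below 0 in both THP-1 pairs.

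Small shifts of opposite sign ran through the members. The median log2 response was 0.11 in KASUMI-1, with 144 of 219 members above 0, and -0.16 in THP-1, with 45 above 0. The medians of all genes were 0.02 and -0.01. Together the members took 0.25% of counted reads with vehicle and 0.268% with LSD1i at 6 h in KASUMI-1, and 0.226% and 0.247% at 72 h. In THP-1 they took 0.314% and 0.263% at 24 h and 0.307% and 0.26% at 72 h. By pair, the median response was 0 at 6 h and 0.22 at 72 h in KASUMI-1, and -0.20 at 24 h and -0.09 at 72 h in THP-1. The shift was not particular to chromosome 19: the 248 ZNF genes of other chromosomes had medians of 0.13 in KASUMI-1 and -0.12 in THP-1.

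Genes of chromosome 19 that are not zinc finger genes moved otherwise in KASUMI-1 and at 24 h in THP-1, but not at 72 h in THP-1. In the THP-1 pair of 24 h their median was 0.05 inside the clusters and 0.08 outside, beside -0.20 for the members. In that of 72 h it was -0.16 inside and -0.08 outside, beside -0.09 for the members. Of 755 tested outside the clusters, the median response was -0.18 in KASUMI-1 and -0.02 in THP-1, and for 106 inside the clusters it was -0.07 and -0.04. By cluster, the members' median response in KASUMI-1 ran from -0.04 in C1 to 0.37 in C5, with 0.33 in C4, 0.26 in C3 and 0.15 in C8. Without the 72 h pair it was 0.20 in C4, 0.03 in C3 and 0.07 in C1, and without the 6 h pair 0.09 in C1. In THP-1 it ran from -0.26 in C4 to 0.14 in C1, which was -0.06 without the 72 h pair. Summed over the 26 members of C4, the level went from 251 to 299 CPM at 6 h and from 189 to 266 at 72 h in KASUMI-1, and went from 463 to 364 at 24 h and from 432 to 388 at 72 h in THP-1. These sums follow the line difference too, since every THP-1 library was above every KASUMI-1 library. No test was made of a cluster's median or sum. LYZ, the monocyte lysozyme gene, moved with the inhibitor in both lines, from 29.6 to 136 CPM at 6 h and 38.1 to 415 at 72 h in KASUMI-1 (log2 response 2.82, SE 0.35) and from 886 to 4843 at 24 h and 527 to 11086 at 72 h in THP-1 (3.42, SE 0.36), and its part in the members' responses was not tested.

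In single pairs, with 1 library for each agent and no test, the highest log2 ratios among members with a mean of at least 2 CPM were small. At 6 h in KASUMI-1 they were 0.83 for ZNF460, 0.72 for ZNF233 and 0.68 for ZNF471, and the lowest were -0.71 for ZNF296, -0.61 for ZNF584 and -0.54 for ZNF565. At 72 h they were 1.07 for ZNF709, 1.05 for ZNF471 and 1 for ZNF30, and the lowest were -1.51 for ZNF320, -0.81 for ZNF787 and -0.66 for ZNF428. In THP-1 at 24 h ZNF30 (0.83), ZNF114 (0.46) and ZNF296 (0.40) were highest and ZNF724P (-0.88), ZNF439 (-0.61) and ZNF665 (-0.59) lowest. At 72 h ZNF556 (0.67), ZNF30 (0.62) and ZNF836 (0.50) were highest and ZNF93 (-0.70), ZNF610 (-0.66) and ZNF460 (-0.61) lowest. ZNF30 thus stood among the highest in 3 of 4 pairs. ZNF320 rested on its vehicle level at 72 h, 4.32 CPM against 1.49 to 1.55 in the other KASUMI-1 libraries, and its exons overlap those of ZNF816A.

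The members nearest to 0 in KASUMI-1 stayed near 0 with LSD1i. ZNF350 had at most 0.0731 CPM, ZNF615 0.0763, ZNF585B 0.0787, ZNF257 0.089, ZNF738 0.153 and ZNF730 0.229 in any KASUMI-1 library, and none of their KASUMI-1 responses passed the test (adjusted p from 0.14 to 0.814). At these counts a change of their level in KASUMI-1 was not detectable. In THP-1, ZNF607, ZNF571 and ZNF599 likewise stayed at or under 1.07 CPM with and without the inhibitor, and their responses did not pass (adjusted p = 0.962, 0.782 and 0.915).

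The repression machinery that KRAB proteins use was expressed in both lines. Of 24 listed genes, 23 were tested, and ZFP57, a zinc finger protein of imprinted loci, had at most 1 read in a library. Between the lines 8 were higher in THP-1 and 9 lower, beside 30.1% and 26.4% of all genes. CBX5, which encodes the HP1 protein HP1-alpha, was at 13.9 to 15.8 CPM in KASUMI-1 and 58.2 to 72.3 in THP-1 (2.14, SE 0.17, adjusted p = 2.48e-06). The histone methyltransferase SETDB1 was at 43.4 to 59.9 and 85.6 to 104 CPM (1.06, SE 0.17) and the LSD1 partner RCOR1 at 43.4 to 55.1 and 98.3 to 107 (1.12, SE 0.17). The de novo DNA methyltransferases were lower in THP-1, with DNMT3A at 58 to 97.1 and 11.6 to 16.2 CPM (-2.21, SE 0.21) and DNMT3B at 15.5 to 16.8 and 6.01 to 8.36 (-1.20, SE 0.23). TRIM28 was also lower (-0.63, SE 0.17, adjusted p = 0.00859), as was KDM1A, the gene of LSD1 itself (-1.08, SE 0.18, adjusted p = 0.00052).

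With LSD1i, where 7.02% of all genes rose in KASUMI-1 and 5.09% fell, 2 of the 23 rose in KASUMI-1 by edgeR, the chromatin remodeler ATRX (0.53, SE 0.12, adjusted p = 0.00945) and the SETDB1 partner ATF7IP (0.41, SE 0.13, adjusted p = 0.0413), and 0 fell. ATRX was at 112 and 160 CPM at 6 h and at 127 and 185 at 72 h. In THP-1 edgeR called 0 of them in either direction. TRIM28 responded by -0.24 in KASUMI-1 and -0.16 in THP-1 and SETDB1 by 0.24 and -0.14, and none of these passed (adjusted p from 0.236 to 0.635).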

How the data were processed

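RNA sequencing reads were counted per gene by the authors, and the deposited table holds raw counts for 8 libraries in 33045 rows. Per the file headers, featureCounts 1.5.2 was run on Ensembl gene models of NCBI build 36 with no option for strand or for reads that map to several places, so antisense neighbours and near-identical paralogs are uncertain. Per the submitters' processing notes, FastQC 0.10.0 and TopHat2 2.0.10 were used. No per-sample column was left unused.

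Counts were tested with edgeR 4.0.16 (R 4.3.3, quasi-likelihood F-test, TMM scaling, filterByExpr with a minimum count of 10, Benjamini-Hochberg threshold 0.05). The line difference used the 4 vehicle libraries (15456 genes) and the LSD1i responses all 8 (16060 genes), with a term for each of the 4 pairs, which the labels define by line and time. Each fit had 2 residual degrees of freedom. SEs are approximate (the log2 change divided by the root of F). CPM and RPKM were computed from the counts with TMM scaling, and single ratios carry 95% exact intervals that cover counting error only. The fits were tested on simulated data. Alternatives were DESeq2 1.42.0, DESeq2 size factors in edgeR, no filter, libraries or pairs left out, no pair terms, other cluster limits and LSD1i in place of vehicle libraries.

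Named members were ZNF274, ZNF91, ZNF93, ZNF331 and ZNF382, the 5 with the highest median RPKM, the 10 highest and 10 lowest called line differences at an average log2 CPM not under 0, members with at most 3 reads over 1 line, the called responses and differences, all members of runs, and the 3 highest and lowest of each pair. Members and lists were chosen with earlier results of these data known. Promoter windows are 250 bases before RefSeq starts on GRCh38.p14, matched by name, and strings in them were chosen after the sequences were seen.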

Additional observations from a re-analysis of the deposited data

Results flagged for a closer look

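For 7 members the LSD1i response differed between THP-1 and KASUMI-1 by the edgeR test of the difference itself, each with a lower response in THP-1. They are 3.2% of the members, beside 2.62% of all genes. The log2 difference was -1.34 for ZNF93, -1.23 for ZNF534, -0.84 for ZNF439, -0.84 for ZNF548, -0.73 for ZNF254, -0.70 for ZNF224 and -0.69 for ZNF100. The exons of ZNF548 overlap those of ZNF547. All 7 had positive log2 ratios in both KASUMI-1 pairs and negative ones in both THP-1 pairs. The members were picked by a test on these same pairs, so the signs describe the calls and add no support to them. The 72 h pairs share their time, and the earlier pairs were taken at 6 h in KASUMI-1 and at 24 h in THP-1.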

How the results depend on the processing

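Leaving out each vehicle library in turn gave 63 to 82 members higher and 29 to 53 lower in THP-1, and with the LSD1i libraries in place of vehicle 53 were higher and 56 lower, of which 52 and 43 were among the main 71 and 45. Fits without a pair assume that the remaining lone pair varies like the others. Leaving out each pair in turn gave 0 to 24 members that rose and 0 to 4 that fell in KASUMI-1, 0 to 2 that rose and 0 to 6 that fell in THP-1, and 0 to 1 higher and 0 to 20 lower differences of response. With DESeq2 size factors 3 members fell in KASUMI-1. With no filter on low counts 16 rose and 3 fell in KASUMI-1 and 16 differences of response were lower. With DESeq2, 4 rose in KASUMI-1, 0 rose in THP-1 (1 at an unadjusted p under 0.05) and 3 differences were lower. Without the replicate block, that is without the pair terms, edgeR called 0 members in each of these (unadjusted 15, 6, 1, 7 and 18 for KASUMI-1 rises and falls, THP-1 rises and falls, and lower differences). Among line differences and the members' overall medians, directions turned for ZNF610 between the lines (-0.27 in LSD1i libraries), for the members' median KASUMI-1 response (-0.0035 without the 72 h pair, up to 0.23 without the 6 h pair) and for the median line difference of C3 (0.070 over members with average log2 CPM not under 1, 0.02 with no filter, 0.01 with DESeq2 and 0.06 to 0.16 with each vehicle library left out). With the limit on average CPM the medians were 1.69 in C4, -1.01 in C5 and 1.40 in C8. Over the 9 clusters, medians of the KASUMI-1 response turned without the 72 h pair in C1 (0.07), C2 (-0.02), C6 (-0.02) and C9 (-0.07), without the 6 h pair in C1 (0.09) and C7 (0.16), with DESeq2 size factors (-0.0052) or DESeq2 (-0.0078) in C9 and with no filter in C7 (0.0023). Those of the THP-1 response turned in C1 without the 72 h pair (-0.06) and in C5 without the 24 h (0.11) or the 72 h pair (0.05). Causes were not tested, apart from the fewer libraries or genes that an alternative holds. Low counts limit ratios of genes near 0 in 1 line.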
